A study of Mus musculus with 4 samples.

Results

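Genes for G-protein-coupled receptors, and for the proteins that carry or end their signals, were examined in eosinophils from the bone marrow and the pleural cavity of wild-type mice. Members were chosen by gene symbol from the deposited list of genes: receptors of the Adgr, P2ry, Adora, Fpr, C3ar1, C5ar, S1pr, Lpar, Hrh, Adrb, Mrgpr and numbered Gpr families, together with Rgs, G protein alpha, beta and gamma subunit, Grk and Arrb genes. Chemokine, olfactory, vomeronasal and eicosanoid receptors were left out of this choice. It gave 75 of the 5807 listed genes, 49 receptors and 26 signalling genes. The mouse annotation holds 224 protein-coding genes that match the same names, so 149 of them were not listed and have no direction here.

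All 4 libraries came from wild-type mice, and both tissues were taken after the animals had received LLC cells, which derive from a Lewis lung carcinoma. That is how the labels describe them, and the study's supplementary methods also name LLC-bearing mice as the source of both tissues. The study's results text, by contrast, calls the bone marrow eosinophils naive. Library titles gave 2 libraries from bone marrow and 2 from the pleural cavity, where the cells were collected by lavage. A legend of the study gives day 2 for the pleural lavage. The labels give no age. For all mice the study's methods give an age range in weeks, that of young adult mice, and matching for sex and weight. No source used here says whether a library came from a single mouse or from pooled mice. Bone marrow cells were enriched on F4/80 and sorted as CD45+ SiglecF+ SSC-high cells. Pleural cavity cells were enriched on CD45 and sorted as CD11c- Gr1-negative or low CD11b+ F4/80+ SiglecF+ SSC-high cells, so the gates differed between the tissues. The deposited table gives the authors' mean reads per tissue and no value per library. The spread between libraries could therefore not be computed, no test was made, and every difference below is a description of 2 means.

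G-protein-coupled receptors sit in the cell membrane and, once a ligand binds, act on heterotrimeric G proteins, whose alpha subunit exchanges GDP for GTP and separates from the beta and gamma subunits. RGS proteins speed the hydrolysis of that GTP and so end the signal, whereas receptor kinases and arrestins switch off and internalise the receptor itself. Leukocytes use this system to sense complement fragments, formyl peptides, nucleotides, adenosine, lipids and amines, and eosinophils follow such cues when they leave the blood and enter a tissue.

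Each tissue's mean reads were divided by their sum over all listed genes, which was 15947438 reads for the pleural cavity and 11762543 reads for bone marrow. The log2 ratio of these scaled values, pleural cavity over bone marrow, is given below, and a gene is called higher or lower where the ratio passed 1 in either direction. A mean under 3 reads was set to 3 before the ratio was taken, and where 2 values are given side by side the pleural cavity comes first. Of the 75 members, 20 had a higher and 39 a lower scaled level in pleural cavity eosinophils, and 16 lay within 1 of 0. Over all listed genes 16.0% were higher, 50.5% lower and 33.4% within 1, against 26.7%, 52.0% and 21.3% of the members. Every listed gene has a q-value under 0.05 in the authors' own comparison, so genes that did not pass in that comparison are missing from every count. For the same number of genes the study's text also states an absolute log2 fold change over 1. By the ratios used here 33.4% of the listed genes lay within 1, so the shares given here are not the study's counts of up and down genes. With no scaling the members split into 28 higher and 39 lower, beside 30.5% and 43.2% of all listed genes. With ratios centred on the abundant listed genes they split into 13 higher and 41 lower, beside 9.04% and 57.3%. The 7 higher members that lay within 1 when centred were Arrb1, P2ry14, Adgrg6, Gpr34, Grk6, Rgs3 and Adgre4. Those scalings move every log2 ratio by 0.44 up and 0.44 down, respectively.

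The higher and the lower members stood at different levels. Among the 20 higher members the medians were 3783.5 and 671.5 mean reads, pleural cavity first. Among the 39 lower members they were 7 and 137.5 mean reads, and 30 of the 39 had under 100 mean reads in the pleural cavity. No higher member fell under that level in the pleural cavity. A lower call itself goes with fewer pleural cavity reads, so this split is partly set by the call. When genes needed at least 100 mean reads in 1 of the tissues, 58 members were left, with 20 higher, 22 lower and 16 within 1. Among all listed genes the filter kept 877 of 930 higher and 1725 of 2935 lower ones. Over the 4544 listed genes that pass it 19.3% were higher, 38.0% lower and 42.7% within 1. The shares of the members were 34.5%, 37.9% and 27.6%. The median log2 ratio of the members was -1.93 without the filter and 0.53 with it, beside -1.02 and 0.33 over all genes.

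Of the 49 receptors, 15 were higher, 29 lower and 5 within 1, or 30.6%, 59.2% and 10.2% beside the 16.0%, 50.5% and 33.4% of all listed genes. Of the 26 signalling genes, 5 were higher, 10 lower and 11 within 1, or 19.2%, 38.5% and 42.3%. The shares of all listed genes are also the background for the smaller counts by role, list and family below. Summed over the receptors, mean reads took 1.26% of all listed reads in the pleural cavity against 0.402% in marrow. The signalling genes took 0.666% and 0.468%.

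**Figure D1:**
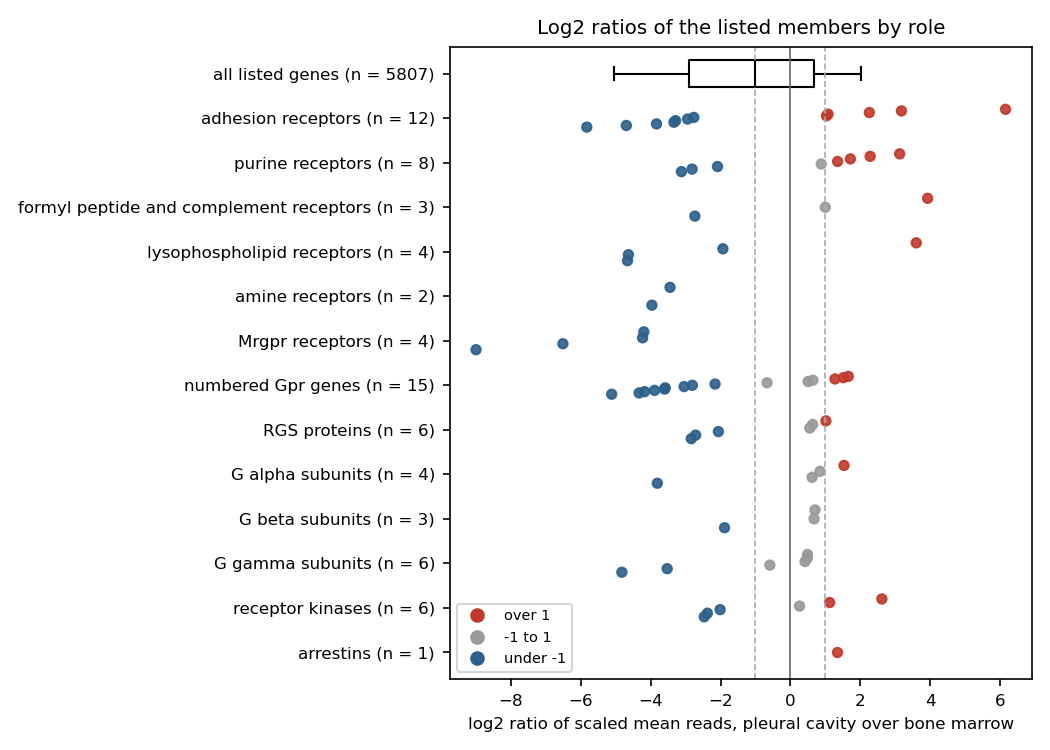
Log2 ratio of the scaled mean reads, pleural cavity over bone marrow (x axis), for 74 of the 75 members, each a point in its role group (y axis), with red over 1, grey from -1 to 1 and blue under -1; the box shows the quartiles and median of all 5807 listed genes and its whiskers the 5th and 95th percentiles. Adhesion receptors split into 5 points over 1 and 7 under -1, while all 4 Mrgpr receptors lie under -1.

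Sample identity was checked on 12 eosinophil markers, of which 10 were listed, 3 higher and 7 lower, and which summed to 8116 per 1000000 listed reads in the pleural cavity and 95750 in bone marrow. Siglecf, the sialic acid-binding lectin used in the sort, had 21371 mean reads in the pleural cavity against 7105.5 in marrow, and the eotaxin receptor Ccr3 had 67556.5 and 17177.5. The transcription factor Gata1 was higher too, with a log2 ratio of 1.11, and the lipoxygenase Alox15 lower, at -1.85. Granule protein genes were present in both tissues but far lower in the pleural cavity, with 341.5 against 139062 mean reads for Epx and 1482 against 555404 for Prg2, and Prg3, Ear1, Ear2 and Ear6 had log2 ratios from -8.94 to -7.26. Markers of neutrophils and their precursors were all listed, 14 of 14, and all lower in the pleural cavity. Their summed level was 2301 on the scale of 1000000 listed reads there and 116939 in bone marrow, with no marker at 0. Basophil and mast cell markers, 6 of 8 listed and all lower, summed to 10.9 and 968, and 5 of 5 proliferation markers, all lower, to 45.4 and 1410. Of 13 macrophage and monocyte markers 8 were listed, of which 6 were higher, 1 lower and 1 within 1, and they summed to 6413 in the pleural cavity and 8460 in bone marrow. Lyz2, a lysozyme gene that granulocytes also express, had the most reads of these in both tissues, and without it the other 7 summed to 3253 and 1019, a split made after the values were seen. T and NK cell (3 of 9 listed, all lower) and erythroid markers (3 of 6, all lower) summed to 9.97 and 0.847 in the pleural cavity and to 903 and 67.7 in bone marrow. Platelet markers (3 of 5 listed, 1 higher and 2 lower) summed to 106 and 239, and the B cell list had 1 of 6 genes listed, which was higher, at 23.0 and 9.10. These markers move with the tissue, as the members do, and their part in the differences below was not tested. Fewer cells of a type and less RNA per cell cannot be told apart in these bulk samples.

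Adhesion receptors carried most reads of the member receptors. They had 8528 of 12610 per 1000000 listed reads in the pleural cavity and 2209 of 4018 in bone marrow. These receptors have long extracellular parts that bind other cells or matrix, and 12 of 27 annotated genes were listed. Adgre1 encodes F4/80, a surface antigen of macrophages and mouse eosinophils. Among the member receptors, which leave out Ccr3, it had the most reads in both tissues. It had 73916.5 mean reads in the pleural cavity against 11406 in marrow, a log2 ratio of 2.26 or 4.78-fold. F4/80 was part of the sort in the pleural cavity and of the bead enrichment in bone marrow, so its transcript is tied to how the cells were chosen. Adgre5 encodes CD97, a receptor of leukocytes that binds CD55, and had 40620 and 3316 mean reads, a log2 ratio of 3.18. Its exons overlap those of Ddx39 on the opposite strand, and 22 members in all have exons that overlap another annotated gene. Adgre4, also found on macrophages and included in the macrophage list above, had 13069.5 and 4720 mean reads and a log2 ratio of 1.03. Of the 8 listed macrophage markers 6 were higher in the pleural cavity, Adgre4 among them, 1 was lower and 1 within 1. Csf1r and Marco had log2 ratios of 1.94 and 3.04, whereas C1qa had 0.92 and Lyz2 -1.24.

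A run of 3 adhesion receptor genes on chromosome 8 of GRCm38 was split in direction. Adgrg5 lies from 94923694 to 94943280, Adgrg1 from 94974751 to 95014217 and Adgrg3 from 95017692 to 95045250, all on the plus strand within 121.556 kb. Adgrg5 had 6557.5 mean reads in the pleural cavity against 68 in marrow, the largest log2 ratio among the members at 6.15 or 71.1-fold. Adgrg1, or GPR56, known from cytotoxic lymphocytes and the brain, went the other way with 167.5 and 1245.5 mean reads and a log2 ratio of -3.33. Adgrg3, or GPR97, a receptor of granulocytes, had 812.5 and 4071.5 mean reads and a log2 ratio of -2.76. The 250 bases before the start sites of the outer genes of this run are given here, because these neighbours differed in direction. They come from RefSeq on GRCm38.p6, where the Adgrg5 window is chr8:94923444-94923693 and the Adgrg3 window chr8:95017442-95017691, both on the plus strand and written 5′ to 3′. Capitals mark GAGGAA, letters that PU.1 and related ETS factors bind, read on either strand. Shorter ETS sites were not searched for and are not marked.

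Adgrg5: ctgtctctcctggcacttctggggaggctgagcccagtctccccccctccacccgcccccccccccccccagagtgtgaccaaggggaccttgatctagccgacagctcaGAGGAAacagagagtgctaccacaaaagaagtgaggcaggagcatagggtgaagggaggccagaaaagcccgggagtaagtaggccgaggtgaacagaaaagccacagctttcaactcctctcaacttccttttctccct
Adgrg3: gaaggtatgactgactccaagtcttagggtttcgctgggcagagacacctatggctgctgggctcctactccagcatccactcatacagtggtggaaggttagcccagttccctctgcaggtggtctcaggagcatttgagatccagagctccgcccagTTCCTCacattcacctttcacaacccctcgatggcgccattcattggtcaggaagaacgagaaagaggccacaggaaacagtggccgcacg

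The letters GAGGAA stand 140 bases before the start site of Adgrg5 on the strand of the gene, and 91 bases before that of Adgrg3 on the opposite strand. They therefore occurred once in each window, whichever way the gene differed. Of all 32851 promoter windows of this length 23.3% hold these letters on either strand, as do 32.5% of the 80 windows of the 59 members with a promoter in the table. By direction, the letters were found for 6 of 13 higher, 12 of 33 lower and 4 of 13 members within 1.

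Neighbouring receptor genes also differed in direction on chromosomes 3 and X. On chromosome 3, P2ry14 had a log2 ratio of 1.35, while Gpr171 and P2ry13 on either side of it had ratios of -2.16 and -2.81. On the X chromosome, P2ry10b had a ratio of 2.28 and Gpr174 one of -3.04. By contrast the 2 listed Mrgpra2 genes on chromosome 7 were both lower, and Rgs14 and Grk6 on chromosome 13 both had positive log2 ratios.

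**Figure D2:**
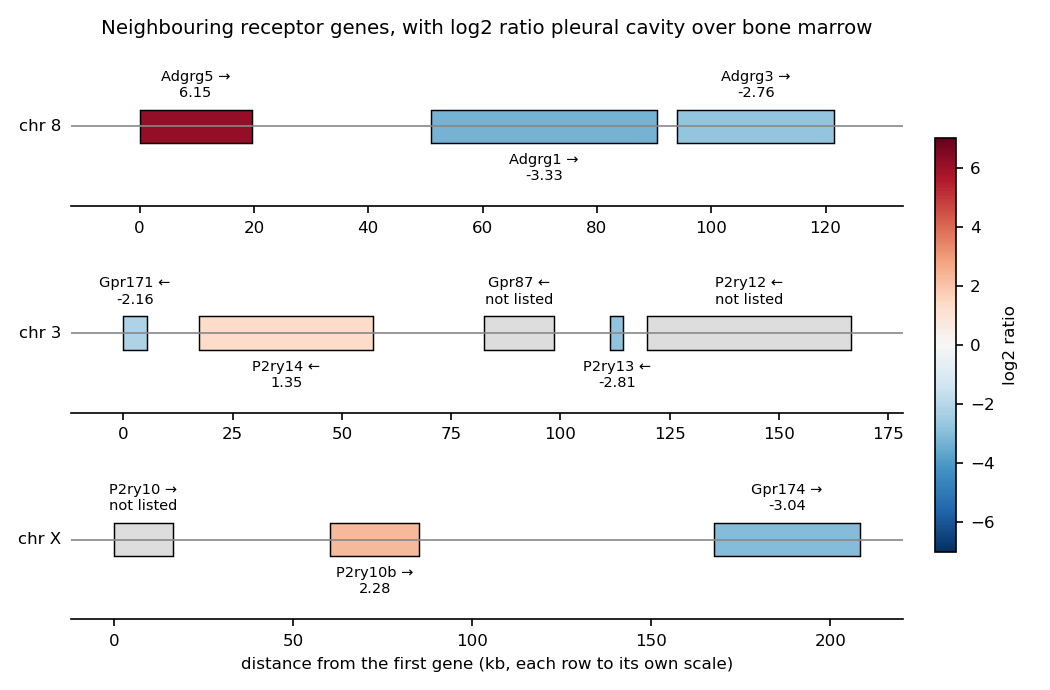
Gene bodies of neighbouring receptor genes on chromosomes 8, 3 and X drawn to scale along the distance from the start of the leftmost gene (x axis, kb), coloured and labelled by log2 ratio of scaled mean reads, pleural cavity over bone marrow; arrows give the strand and grey marks genes that were not listed. In each of the 3 runs a gene with a positive ratio has a neighbour with a negative one, the widest step being from 6.15 for Adgrg5 to -3.33 for Adgrg1.

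The remaining adhesion receptors were Adgrg6, with 765 and 267.5 mean reads and a log2 ratio of 1.08, and 5 lower genes. Of these Adgrl4, an endothelial receptor, had 86 and 618.5 mean reads and Adgrl2, a latrophilin that binds teneurins, 5 and 95.5. Adgrl3, Adgrg4 and Adgrb3 had 2, 0.5 and 0 mean reads in the pleural cavity beside 125.5, 31.5 and 17 in bone marrow. Adgrb3 was at least 7.68-fold lower when 3 reads stand for its 0. All bounds of this kind below use 3 mean reads per tissue as the floor.

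Of the purine receptors, 8 of 13 annotated genes were listed, 4 higher, 3 lower and 1 within 1. Of the 3 listed adenosine receptors Adora2a and Adora2b were higher and Adora3 lay within 1. Adora2b, a low-affinity receptor coupled to the G protein that raises cyclic AMP, had 834 mean reads in the pleural cavity against 70.5 in marrow, a log2 ratio of 3.13. Adora2a, the high-affinity receptor of that kind, had 178 and 40 mean reads and a ratio of 1.71. Adora3 is known from mast cells and eosinophils, couples to inhibitory G proteins and had far more reads, 5127 and 2053, with a ratio of 0.88. Its exons overlap those of Tmigd3 on the same strand, so reads may be divided between these genes. With no scaling Adora3 also passed 1, at 1.32, and centred on abundant genes it stood at 0.44.

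Nucleotide receptors went both ways. P2ry14, a receptor for UDP-glucose, had 7170 mean reads in the pleural cavity against 2076.5 in marrow. P2ry10b, a paralog of P2ry10 with fractional reads, had 688.545 and 104.515, and P2ry10 itself was not listed. P2ry2, which binds ATP and UTP, had 204 and 639 mean reads and a log2 ratio of -2.09, and the ADP receptor P2ry13 had 26.5 and 137.5. P2ry4 had few reads in both tissues, at means of 0.74 and 19.22, and they were fractional.

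Of the complement and formyl peptide receptors, C3ar1 was higher, C5ar1 within 1 and Fpr2 lower, out of 10 annotated genes. C3ar1 encodes the receptor for C3a and spans 122847138 to 122856161 on the minus strand of chromosome 6 in GRCm38. It had 19238 mean reads in the pleural cavity against 935 in marrow. The log2 ratio was 3.92 or 15.2-fold, the second largest among the member receptors. C5ar1, the receptor for the chemoattractant C5a, had 5904.5 and 2183 mean reads and a log2 ratio of 0.996, just under 1. Unscaled, C5ar1 stood at 1.44 and so passed. Fpr2, which binds formyl peptides, cathelicidin and serum amyloid A, had 42.5 and 208.5 mean reads and a ratio of -2.73, and its exons overlap those of Fpr3 on the same strand. Fpr1 and C5ar2 were not listed. Of the 250 bases before the start of C3ar1, the 246 outside annotated exons are given, because it combined a large ratio with many reads. This RefSeq window is chr6:122856162-122856407 of GRCm38.p6 on the minus strand, written 5′ to 3′ along the gene, and capitals mark AGATAA or its complement, the letters that GATA factors bind.

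C3ar1: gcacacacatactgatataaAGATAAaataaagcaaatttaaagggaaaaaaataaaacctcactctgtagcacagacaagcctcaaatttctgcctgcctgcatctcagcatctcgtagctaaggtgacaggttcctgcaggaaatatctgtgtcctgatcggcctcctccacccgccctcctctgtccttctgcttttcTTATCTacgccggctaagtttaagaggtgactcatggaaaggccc

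AGATAA was found 230 bases before the RefSeq start site on the strand of the gene and 49 bases before it on the opposite strand. Among all promoter windows 9.99% hold these letters on either strand, beside 8 of 80 member windows. By direction, they were found for 3 of 13 higher, 4 of 33 lower and 0 of 13 members within 1. TGACG, the core of a cyclic AMP response element, was found in 17.8% of all windows and 12.5% of member windows, for 2 of 13 higher, 5 of 33 lower and 3 of 13 members within 1. A match of letters is not evidence that a factor binds there.

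Lysophospholipid receptors contained 1 higher and 3 lower genes among 11 annotated ones. S1pr1, the sphingosine 1-phosphate receptor that leukocytes use to leave lymphoid tissue, had 1782.5 mean reads in the pleural cavity against 108.5 in marrow, a log2 ratio of 3.60 or 12.1-fold. S1pr3, which binds the same lipid, had 0.5 and 56 mean reads. Lysophosphatidic acid receptors were lower, with 130 and 366 mean reads for Lpar6, whose exons overlap those of Rb1 on the opposite strand, and 0 and 55 for Lpar4, which was at least 24.9-fold lower.

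Both listed histamine receptors were lower. Hrh2, which raises cyclic AMP, had 36.5 and 293 mean reads and a ratio of -3.44. Hrh4, a histamine receptor through which eosinophils are attracted, had few reads in both tissues, 2.5 and 34.5. All 4 listed Mrgpr receptors were lower, out of 20 annotated. Mrgpra2b had 2 mean reads in the pleural cavity against 1127.48 in marrow, and its close paralog Mrgpra2a 0 and 201.515. Both had fractional reads in bone marrow, so the division between them is uncertain, and Mrgpra2a was at least 91.1-fold lower. Mrgprb1 and Mrgpre had 0 and 1.5 mean reads beside 40.5 and 41.5, which makes Mrgprb1 at least 18.3-fold lower.

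Of the numbered Gpr genes, 15 of 73 annotated were listed, with 3 higher, 9 lower and 3 within 1. Gpr132, a receptor for oxidised fatty acids and lysophospholipids, had 2470.5 mean reads in the pleural cavity against 638.5 in marrow, a log2 ratio of 1.51. Gpr55, a receptor for lysophosphatidylinositol, had 1284 and 300.5 mean reads and a ratio of 1.66. Gpr34, a receptor for lysophosphatidylserine, had 1001 and 305.5 and a ratio of 1.27, which was 0.83 when centred on abundant genes. Gpr35 was the most abundant lower one, with 225.695 and 2461.36 mean reads, a ratio of -3.89 and fractional reads. Gpr84, a receptor for medium-chain fatty acids, had 18.5 and 246 mean reads and Gpr141, an orphan receptor of myeloid cells, 73 and 653. The lowest ratio of the group, -5.11, was that of Gpr137c, with 6.5 and 166 mean reads and exons that overlap those of Txndc16. Its relatives Gpr137b and Gpr137, which act at lysosomes, had ratios of 0.64 and 0.50, and Gpr160 had -0.67. Gpr171, Gpr174, Gpr22, Gpr63 and Gpr149 had at most 33 mean reads in the pleural cavity and between 26.5 and 108.5 in bone marrow. Gpr183 and Gpr65 were not listed.

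**Figure D3:**
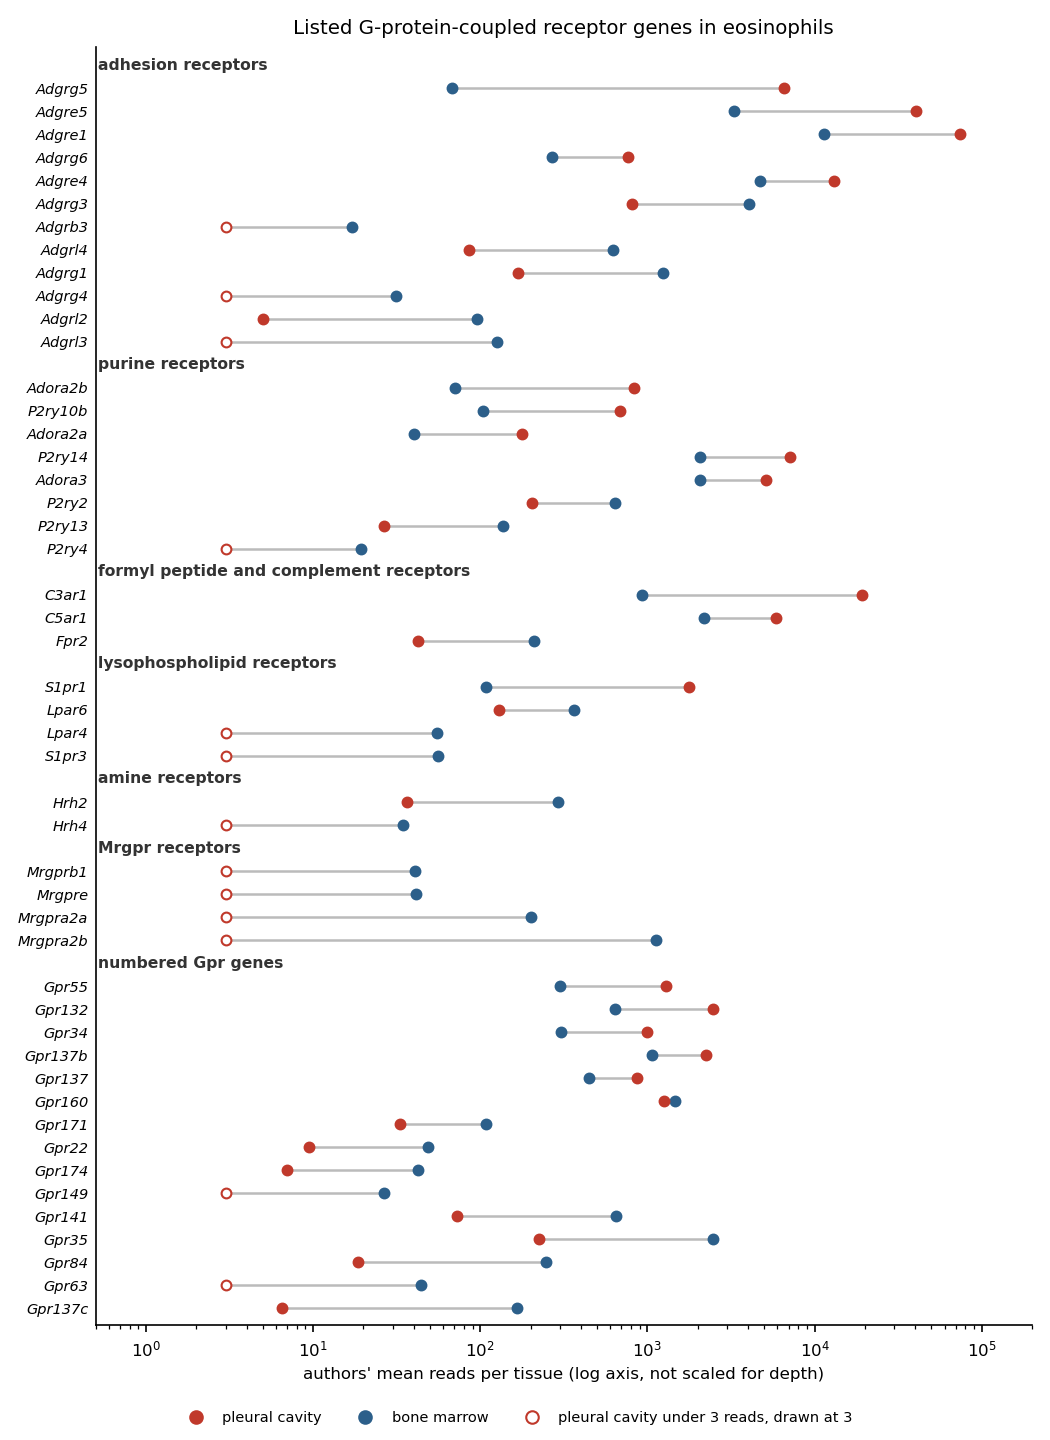
The authors' mean reads for 48 of the 49 member receptor genes on a log axis, not scaled for depth. Genes (y axis) are grouped by role, with pleural cavity (red) and bone marrow (blue) eosinophils. Open circles are pleural cavity means under 3 reads, drawn at 3. Of these receptors, 13 have such an open circle, while the lowest bone marrow mean is 17 reads.

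Levels of different genes were compared as mean reads per kilobase of the longest annotated transcript and per 1000000 listed reads. On this scale Adgre1 stood at the top of the member receptors in both tissues, at 1431 in the pleural cavity against 299 in marrow. In the pleural cavity Adgre5 stood at 849, C3ar1 at 280 and Adgre4 at 235. Adgre1 made up 35.5% of the summed level of the member receptors there and 22.3% in bone marrow. Adgre5 made up 21.1% and 7.01%. C3ar1 stood at rank 4 in the pleural cavity and 16 in bone marrow, and Adgrg5 at rank 7 and 34. Receptors that were not listed are missing from these sums, as are listed receptors outside the members, such as Ccr3. The shares and ranks hold for the member receptors only.

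Of 13 listed G protein subunits 8 lay within 1, with Gna15 higher and 4 lower, beside 33.4% of all listed genes within 1. With no scaling Gna13, Gnai3, Gnb1 and Gnb2 passed 1, which left 5 higher, 4 lower and 4 within, and centred on abundant genes 1 was higher, 5 lower and 7 within. Among alpha subunits 4 of 16 annotated genes were listed. Gna15, a subunit of blood cells that couples many receptors to phospholipase C, had 5811 mean reads in the pleural cavity against 1481.5 in marrow, a log2 ratio of 1.53. Gnai3, an inhibitory subunit that lowers cyclic AMP, had 8670.5 and 3557 mean reads and a ratio of 0.85. Gna13, which couples receptors to the actin cytoskeleton, had 2377 and 1141 and a ratio of 0.62. Gna14 had 0 and 31 mean reads and was at least 14-fold lower. Gnai2, Gnaq and Gnas were not listed, so nothing can be said of their direction.

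Of the beta and gamma subunits, 3 of 6 and 6 of 10 annotated genes were listed. Gnb1 and Gnb2, the common beta subunits, had log2 ratios of 0.68 and 0.70, with 12059.5 and 4391.5 mean reads in the pleural cavity. The divergent subunit Gnb5, which pairs with a subclass of RGS proteins, had 51 and 139 mean reads and a ratio of -1.89. Gng5, Gng10 and Gng2 had ratios of 0.49, 0.49 and 0.42, and Gng12 had -0.59 with 2353.5 and 2612 mean reads. Centred on abundant genes, Gng2 turned to -0.03, so it has no direction that holds under every scaling. The 2 lower gamma subunits were sparse, at 6 and 51 mean reads for Gng11 and 3.5 and 73 for Gng7.

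RGS genes were listed for 6 of 23 annotated genes. Rgs2, which acts mainly on signals of the Gq class, had the most reads of the signalling genes, 26553.5 in the pleural cavity against 13342.5 in marrow, at a log2 ratio of 0.55. Per kilobase it stood at 551 and 375 per 1000000 listed reads, at the top of the signalling genes in both tissues. Its chromosome 1 relative Rgs1, which dampens chemokine receptor signals, went the other way with 656.5 and 3459 mean reads and a ratio of -2.84. Rgs14 had 6137 and 2917.5 mean reads and a ratio of 0.63, and Rgs3, at 1928.5 and 704.5, had a ratio of 1.01, just over 1. Rgs12 and Rgs17 were lower, with 63.5 and 195.5 mean reads for the former, while Rgs17 with 0 and 14.5 was at least 6.55-fold lower.

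All 6 annotated receptor kinases were listed, 2 higher, 3 lower and 1 within 1. Grk5 had 747.5 mean reads in the pleural cavity against 90 in marrow, a log2 ratio of 2.61 or 6.13-fold. Grk6, a kinase abundant in immune cells, had 9606 and 3254.5 mean reads and a ratio of 1.12, and Grk2 had 8282 and 5100 and a ratio of 0.26. Centred on abundant genes Grk6 no longer passed, at 0.68, and Grk2 turned to -0.18. Grk3, a close relative of Grk2, was lower, with 134.5 and 400 mean reads and a ratio of -2.01. Grk1, a kinase of photoreceptor cells, and Grk4 had 112.71 and 331.17 mean reads in the pleural cavity and 459.57 and 1267.31 in bone marrow, and the reads of both were fractional. Of the arrestins, Arrb1 had 5096.5 and 1493.5 mean reads and a ratio of 1.33, which was 0.89 when centred on abundant genes, and Arrb2 was not listed.

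**Figure D4:**
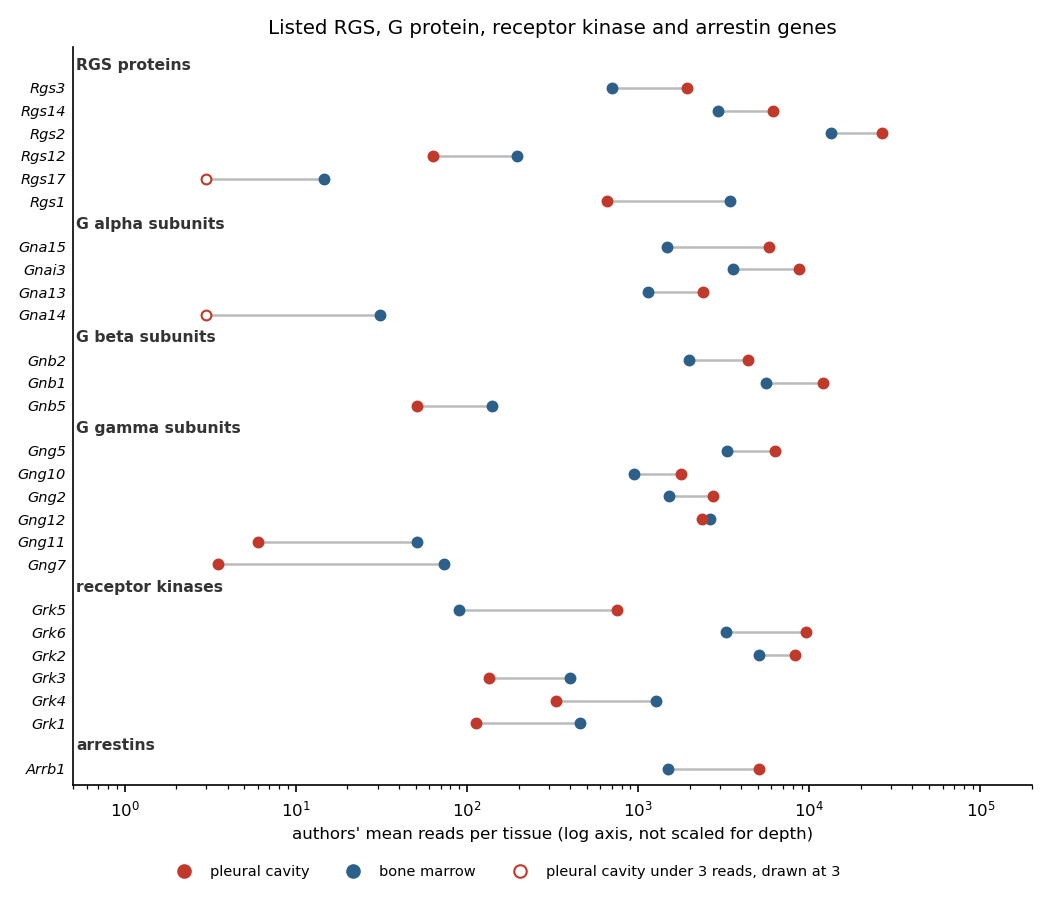
The authors' mean reads for the 26 listed RGS, G protein subunit, receptor kinase and arrestin genes (y axis, grouped by role) in pleural cavity (red) and bone marrow (blue) eosinophils on a log axis, not scaled for depth; open circles are pleural cavity means under 3 reads, drawn at 3. Rgs2, Gnb1, Grk6 and Gnai3 have their red point to the right of the blue one, Rgs1 and Gng12 have it to the left, and of the genes with under 100 reads in bone marrow Grk5 alone does.

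Other genes of the pathway were counted from a list of effectors that act after the G protein. Of 57 effector genes 31 were listed, with 5 higher, 8 lower and 18 within 1. Over all listed genes 16.0% were higher, 50.5% lower and 33.4% within 1. The adaptor subunits of phosphoinositide 3-kinase gamma, the lipid kinase that beta and gamma subunits activate, were both higher, with 8060 mean reads in the pleural cavity against 1447 in marrow for Pik3r6 and 7997.5 and 1545.56 for Pik3r5. Their log2 ratios were 2.04 and 1.93, whereas the catalytic subunit Pik3cg, with 1591 and 2305 mean reads, had -0.97. Rhoa, a small GTPase that acts on actin, had 17281.5 and 5797.5 mean reads and a ratio of 1.14, and Ric8a, a chaperone of alpha subunits, 8414 and 2516 and a ratio of 1.30. The lower effectors had few reads. The exchange factor Rapgef3, or Epac1, which binds cyclic AMP, had 2.5 and 123.5 mean reads, and Gpsm2, a regulator of spindle orientation, 17.59 and 294.09 with a log2 ratio of -4.50. Adcy3 and Prkar1b, which make and sense cyclic AMP, had 26.56 and 4.5 mean reads in the pleural cavity beside 155.58 and 93.635 in bone marrow.

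Genes that make or remove ligands of these receptors were listed for 8 of 22, with 2 higher, 5 lower and 1 within 1. The shares over all listed genes were 16.0%, 50.5% and 33.4%, in that order. Entpd1, or CD39, which degrades ATP on the way to adenosine, had 5932 mean reads in the pleural cavity against 2105 in marrow, a log2 ratio of 1.06. Ada, which breaks adenosine down, had 233 and 1019.5 and a ratio of -2.57. C3, the precursor of the C3ar1 ligand, had 472.5 and 6544 mean reads and a ratio of -4.23. Hdc, the enzyme that makes histamine, had 1084 and 9726.5 and a ratio of -3.60. Among ligands of Fpr2, Saa3 had 13778.5 and 16.5 mean reads and a ratio of 9.27, whereas Camp, the cathelicidin gene that is also on the neutrophil list, had 281.5 and 142004 and a ratio of -9.42.

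Other G-protein-coupled receptor families are given beside the members without a test. Of 10 listed chemokine receptors 5 were higher, 4 lower and 1 within 1, with a median log2 ratio of 1.05. Of the eicosanoid receptors 2 were listed, Ptger2 with 988 and 64.5 mean reads and Ptgfr with 0 and 14. All 118 listed olfactory receptors and 76 of 77 vomeronasal receptors were lower, and both families had a median of 0 mean reads in the pleural cavity. Their medians in bone marrow were 17 and 20.3 mean reads. Some lower members stood near that level in bone marrow, such as Adgrb3 at 17 and Rgs17 at 14.5, beside a median of 137.5 over all 39 lower members. Whether such low levels are background was not tested. The 49 member receptors had medians of 130 mean reads in the pleural cavity against 246 in marrow.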

How the data were processed

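Eosinophils from bone marrow and pleural lavage were sequenced as paired reads of 100 bp, with 2 libraries per tissue. Per the methods and labels, the authors trimmed reads with SOAPnuke, aligned them to GRCm38 with HISAT2 2.1.0, mapped them to genes with Bowtie2 2.2.5 and estimated counts with RSEM 1.2.8; the labels also name StringTie 1.0.4. The deposited mean reads are the authors' average of RSEM expected counts over the libraries of a tissue, with no scaling for depth. The deposited log2 fold changes, p-values and q-values of the authors' DESeq2 comparison were not used, apart from checking that 0 of 5807 genes have a q-value of 0.05 or more. No column of a single library was left unused (0 such columns). Without values per library, depth per library, standard deviations, intervals and the planned tests could not be computed. The listed sums are not library totals.

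Ratios used a floor of 3 mean reads; their computation was checked on simulated data with known folds, which is no test of a difference. Reads were called fractional where a mean was not a multiple of 0.5. Positions, lengths and exon overlaps came from a GENCODE release of GRCm38 that is earlier than the authors' release; all 75 members matched by Ensembl identifier. Whether counting used strand is not given in the sources used here. Promoters came from RefSeq, where 59 members matched. The values of 1 member are counted but not reported here. Members and lists were chosen with earlier results of these data known. Values are given for up to 4 members of a role group with most reads and up to 3 with the largest ratio in each direction, with further members, the neighbouring genes, the Fpr2 ligands and the relatives of named genes added after their values were seen. Alternatives changed scaling, floor, filters, fold threshold, fractional and overlapping genes. Python 3.11.15, pandas 2.3.3, numpy 2.4.6 and matplotlib 3.10.9 were used.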

Additional observations from a re-analysis of the deposited data

How the results depend on the processing

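The main counts were 20 members higher, 39 lower and 16 within 1. The median log2 ratio was -1.93, beside -1.02 over all listed genes. Values over all listed genes under the same setting stand in brackets below. With no scaling 8 members were within 1 (all genes 26.3%) and the median was -1.49 (all genes -0.58). Centred on genes that reach 1000 mean reads in each tissue, 13 were higher (all genes 9.04%). The median was then -2.38 (all genes -1.47), and Grk2 and Gng2 turned to -0.18 and -0.028. Adding 1 read to both means gave a median of -1.93 (all genes -1.02), and it changed none of the 3 counts. When genes needed at least 100 mean reads in 1 tissue, the median turned to 0.53 (all genes 0.33) with 22 members lower (all genes 38.0%). At 10 mean reads in both it was 0.63 (all genes 0.345) with 18 lower (all genes 37.3%). The median turned positive because both filters remove lower members alone. At an absolute log2 ratio over 2, 9 members were higher (all genes 5.29%) and 29 within (all genes 58%). Over 0.5, 4 were within (all genes 9.23%). Without fractional genes the median was -0.67 (all genes -0.93), so the members then lay above all genes, whereas in the main setting they lay below. Without genes whose exons overlap another gene, an alternative chosen after seeing the data, 9 were within 1 (all genes 29.7%). The median was then -2.01 (all genes -1.26). No paired analysis was possible because the mean columns carry no replicate numbers, and no library could be left out.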
